A study of Homo sapiens with 2 samples.

Results

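The 10 genes described here detect foreign or misplaced nucleic acids or pass that signal towards interferon, and they were followed by symbol through both gene expression tables. All 10 of the 10 listed genes had a row among the 23375 gene rows of each table, under the older symbols DDX58 (now RIGI) and TMEM173 (now STING1) where these apply. They are the receptors DDX58, IFIH1, DHX58 and TLR3, the adaptors MAVS and TMEM173, the kinase TBK1, the transcription factors IRF3 and IRF7, and the RNA editing enzyme ADAR. SETD2 KO cells were a 786-O derivative in which SETD2 had been knocked out with a zinc finger nuclease, and WT cells were 786-O with wild-type SETD2. 786-O is an established human renal cell carcinoma line without functional VHL, which both lines share. Both were grown in RPMI1640 with fetal bovine serum and received no agent beyond medium. The labels do not say whether the knockout line was 1 clone or a pool. SETD2 is the histone methyltransferase that trimethylates H3K36 in transcribed genes.

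RNA viruses and cellular RNAs that form long duplexes or carry a 5' triphosphate are bound in the cytosol by the RIG-I-like receptors, helicases that pass the signal to the mitochondrial adaptor MAVS. Duplex RNA in endosomes is bound by TLR3, and cytosolic DNA is detected by cGAS, whose cyclic dinucleotide activates the adaptor STING. These routes meet at the kinase TBK1, which phosphorylates IRF3 and IRF7, and these factors then switch on interferon genes. Secreted interferon acts back on the cell through its receptors and JAK kinases, and several receptors of the first step are themselves induced by it. ADAR edits adenosines in duplex RNA and thereby keeps cellular RNA from activating the cytosolic receptor encoded by IFIH1.

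Interferon-activated factors bind the interferon-stimulated response element, whose core is a pair of GAAA repeats, and the sequence around the start is therefore shown for DDX58, IFIH1 and TLR3. The promoters below, from 250 bases before to 50 bases after the transcript start, are from RefSeq on GRCh38.p14 and read 5' to 3' on the gene's strand. DDX58 lies at chr9:32526147-32526446 on the minus strand, IFIH1 at chr2:162318635-162318934 on the minus strand and TLR3 at chr4:186068906-186069205 on the plus strand. Capitals mark matches on either strand to a pair of GAAA repeats with any 2 bases between them in IFIH1 and TLR3, and with any 1 base between them in DDX58.
DDX58: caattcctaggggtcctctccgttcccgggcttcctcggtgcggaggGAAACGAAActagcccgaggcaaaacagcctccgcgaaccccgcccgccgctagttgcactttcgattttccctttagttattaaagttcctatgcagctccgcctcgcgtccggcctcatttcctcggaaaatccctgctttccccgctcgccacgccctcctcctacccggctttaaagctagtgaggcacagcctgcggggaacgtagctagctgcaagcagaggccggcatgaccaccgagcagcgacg
IFIH1: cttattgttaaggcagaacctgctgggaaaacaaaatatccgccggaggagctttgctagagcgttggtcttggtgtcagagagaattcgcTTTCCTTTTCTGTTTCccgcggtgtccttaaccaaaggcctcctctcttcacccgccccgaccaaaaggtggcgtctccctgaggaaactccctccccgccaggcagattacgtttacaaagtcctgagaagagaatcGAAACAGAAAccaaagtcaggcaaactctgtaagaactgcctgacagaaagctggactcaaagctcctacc
TLR3: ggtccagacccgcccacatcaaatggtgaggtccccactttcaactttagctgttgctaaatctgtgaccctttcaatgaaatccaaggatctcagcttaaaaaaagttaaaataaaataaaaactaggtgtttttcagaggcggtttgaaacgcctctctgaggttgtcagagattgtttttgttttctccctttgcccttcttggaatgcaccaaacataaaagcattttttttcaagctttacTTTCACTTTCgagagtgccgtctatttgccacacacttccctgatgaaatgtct

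A RefSeq promoter was found for 6 of the 10 genes. The motif with 2 bases between the repeats was found in 2 of these 6, IFIH1 and TLR3, and in 3.57% of all 35116 promoters of the same length. Counted by gene, as for the 6, it was found in 4.12% of the 12438 tested genes with a promoter. In IFIH1 the match nearest to the start, GAAACAGAAA, began 21 bases before it, and an overlapping pair on the other strand began 159 and 153 bases before it. In TLR3 the match TTTCACTTTC, on the strand opposite to transcription, began 4 bases before the start. DDX58 had no match with 2 bases between the repeats, but held GAAACGAAA, beginning 203 bases before the start. This closer spacing was looked for after the sequences had been seen and occurs in 3.12% of all promoters and in 3.66% of tested genes with a promoter. Neither motif was found in the windows of MAVS, TBK1 or ADAR. DHX58, TMEM173, IRF3 and IRF7 were not searched here. A match is a run of letters and not a measured binding site.

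Each line gave 1 library, so the differences given here have no replicate check and are differences between the libraries, not between conditions. In RNA from whole cultures, fewer cells that express a gene and less of its RNA per cell cannot be told apart. The tables held 50670012 fragments in genes for SETD2 KO and 62304084 for WT. Levels of a gene across libraries are given in fragments and in CPM, fragments brought to a common library size with TMM factors (trimmed mean of M values). Levels of different genes are compared by the deposited RPKM, which is per kilobase of gene length. The ratio is SETD2 KO over WT in scaled fragments, with an exact 95% interval that covers counting error only. To be counted in either direction, a gene needed an interval entirely outside 1.5-fold, which was met by 10.4% of the 16894 genes tested on the higher side, by 9.17% on the lower side and by 19.6% in all. SETD2 itself had 1404 fragments (27.0 CPM) in SETD2 KO, against 4908 fragments (80.9 CPM) in WT. Of 9 markers of renal carcinoma lines, PAX8, a renal lineage factor, was at 168 CPM in SETD2 KO and 251 CPM in WT. KRT8, an epithelial keratin, was at 640.2 CPM in SETD2 KO and 766 CPM in WT, whereas CA9, a hypoxia-induced carbonic anhydrase, had 0 fragments in SETD2 KO and 1 in WT. Other keratins were not alike in the 2 libraries. Those around DHX58 had log2 ratios from -9.80 for KRT19 to 5.54 for KRT16. Many sensors are abundant in blood cells, so leukocyte markers were measured beside them. Of 12 such markers, 4 had no fragment in either library, among them CD3E, and together the 12 summed to 3.59 CPM in SETD2 KO and 4.30 CPM in WT. PTPRC, the pan-leukocyte surface phosphatase, had 1 fragment in SETD2 KO and 2 in WT. CD14 was the 1 marker counted as higher, with 38 fragments in SETD2 KO and 7 in WT, and CSF1R the 1 counted as lower, with 68 fragments in SETD2 KO and 198 in WT. Their part in the results was not tested.

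Of the 10 genes, 3 were counted as higher in SETD2 KO, namely IFIH1, DHX58 and TLR3, and 0 as lower. All 10 had over 100 fragments, and among tested genes with at least 100 fragments 8.72% were counted as higher and 10.8% as lower. At 2-fold 1 of the 10 was higher, DHX58, and 0 were lower, where 5.75% of all genes tested were counted as higher, 3.37% as lower and 9.12% in either direction. The median log2 ratio of the 10 genes was 0.30, beside 0.02 over all genes tested, and 6 of the 10 had a ratio above 1, as did 51.3% of all genes. All 4 RNA receptors had an interval that began at 1.20 or higher, while the intervals of MAVS, TBK1, IRF3 and ADAR ended at 1.01 or lower. The ratio of TMEM173 lay between these groups, but its interval overlapped that of DDX58. The ratio of IRF7 lay above that of DDX58, with an interval that overlapped those of DDX58, IFIH1 and TLR3. Relative to the 50 nearest expressed genes of each gene the groups did not separate, since ADAR had a ratio of 1.17 and TLR3 a ratio of 1.11.

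**Figure D1:**
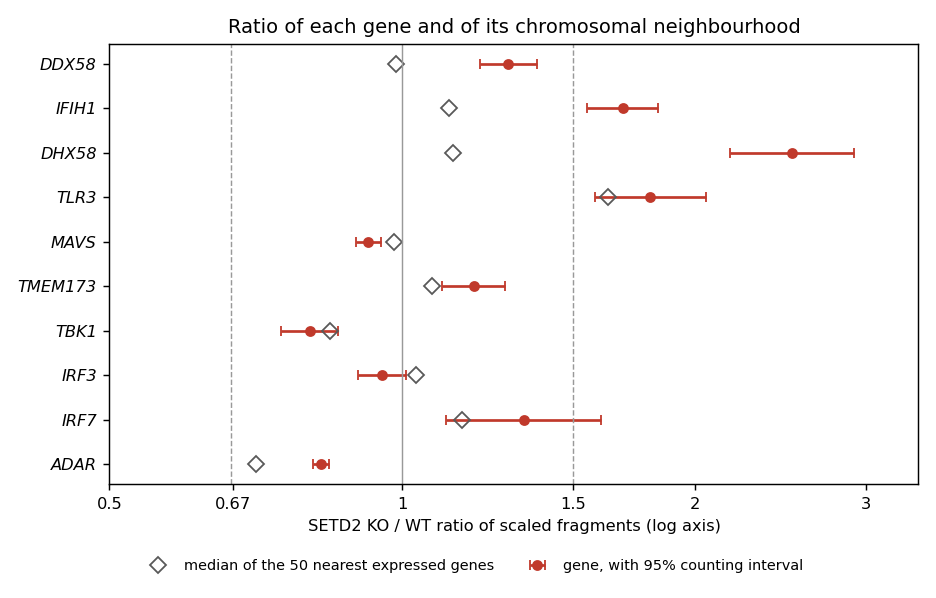
Ratio of SETD2 KO to WT in TMM-scaled fragments (log axis) for the 10 genes, as red points with exact 95% counting intervals, and the median ratio of the 50 nearest expressed genes on the same chromosome as open diamonds. The solid line marks 1 and the dashed lines 1.5-fold in either direction. IFIH1, DHX58 and TLR3 lie wholly beyond the right dashed line, and for TLR3, TBK1 and IRF7 the diamond lies inside the interval.

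DHX58 had the highest ratio of the 10. It encodes LGP2, the RIG-I-like receptor without the signalling domains that contact MAVS, which modulates the other receptors. Its gene (hg19 chromosome 17, 40253422 to 40264751) was counted in 583 fragments, or 11.2 CPM, in SETD2 KO and in 270 fragments, or 4.45 CPM, in WT. The ratio was 2.52 with an interval of 2.18 to 2.92, above 89.8% of all genes tested. IFIH1 (chromosome 2, 163123589 to 163175039) encodes MDA5, the receptor of long duplex RNA. It had 1345 fragments, or 25.9 CPM, in SETD2 KO and 930 fragments, or 15.3 CPM, in WT. Its ratio of 1.69 had an interval of 1.55 to 1.84, whose lower bound is close to the limit of 1.5.

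DDX58 (chromosome 9, 32455300 to 32526322) encodes RIG-I, the receptor of short duplexes with a 5' triphosphate. It was counted in 1789 fragments, or 34.4 CPM, in SETD2 KO and in 1622 fragments, or 26.7 CPM, in WT. The ratio of 1.29 (interval 1.20 to 1.38) lay above 1 but did not reach 1.5-fold. The 3 cytosolic receptors thus differed among themselves, in the order DHX58, IFIH1, DDX58, and their intervals did not overlap. Scaling of the libraries does not enter the ratio between members inside a library. DDX58 had 1.69 times the RPKM of DHX58 in SETD2 KO and 3.31 times in WT, a quotient of 0.511 (interval 0.436 to 0.599, Woolf's approximation for counting error). Relative to IFIH1, DDX58 was at 0.957 times its RPKM in SETD2 KO and at 1.25 times in WT, a quotient of 0.763 (interval 0.685 to 0.849).

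TLR3 (chromosome 4, 186990309 to 187006252), the endosomal receptor of duplex RNA, was counted in 585 fragments, or 11.2 CPM, in SETD2 KO and in 379 fragments, or 6.25 CPM, in WT. Its ratio was 1.80 with an interval of 1.58 to 2.05. The genes around it were also higher in SETD2 KO. The 50 nearest expressed genes on chromosome 4 had a median log2 ratio of 0.70, beside 0.85 for TLR3, and 16 of them were counted as higher and 7 as lower. Relative to these neighbours its ratio was 1.11 with an interval of 0.970 to 1.26, and TLR3 was then no longer counted as higher.

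**Figure D2:**
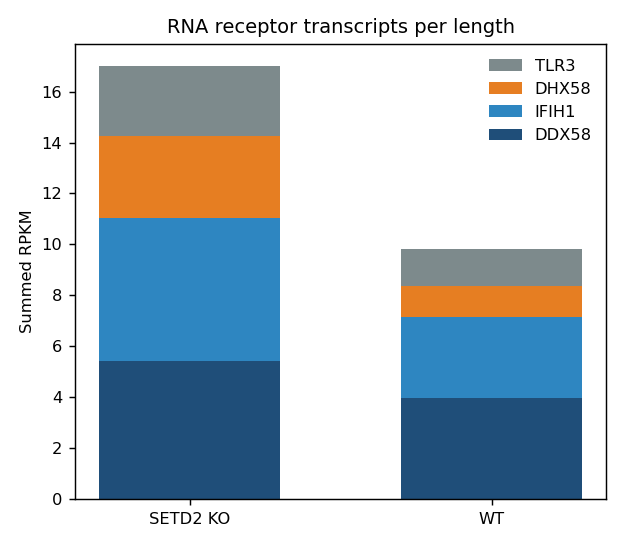
Summed RPKM, as deposited and without TMM scaling, of the 4 RNA receptors in the SETD2 KO and WT libraries, with 1 colour per gene. The bars reach 17.0 in SETD2 KO and 9.81 in WT, and the DHX58 segment makes up 18.8% of it in SETD2 KO and 12.3% in WT.

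The deposited RPKM is not TMM-scaled and gives higher ratios, such as 1.36 for DDX58 and 1.01 for IRF3, beside 1.29 and 0.954 with TMM. Per length, the 4 receptors together reached 17.0 RPKM in SETD2 KO and 9.81 RPKM in WT. DDX58 made up 31.8% of this sum in SETD2 KO and 40.6% in WT, and IFIH1 33.2% in SETD2 KO and 32.3% in WT. The share of DHX58 was 18.8% in SETD2 KO and 12.3% in WT, and that of TLR3 was 16.2% in SETD2 KO and 14.8% in WT.

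The adaptors and the kinase were not counted in either direction. MAVS (chromosome 20, 3827446 to 3856770), the mitochondrial adaptor of the RIG-I-like receptors, had 7788 fragments, or 149.7 CPM, in SETD2 KO and 9836 fragments, or 162 CPM, in WT. Its ratio was 0.924 (interval 0.896 to 0.951). TMEM173 (chromosome 5, 138855113 to 138862343), which encodes STING, had 1432 fragments, or 27.5 CPM, in SETD2 KO and 1409 fragments, or 23.2 CPM, in WT, a ratio of 1.19 (1.10 to 1.28). TBK1 (chromosome 12, 64845840 to 64895899), the kinase at which the routes meet, had 1456 fragments, or 28.0 CPM, in SETD2 KO and 2114 fragments, or 34.8 CPM, in WT. Its ratio of 0.803 (0.751 to 0.859) was the lowest of the 10. MAVS and TBK1 thus lay below 1 and TMEM173 above it, all within 1.5-fold.

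IRF3 (chromosome 19, 50162826 to 50169132), the constitutive factor that TBK1 phosphorylates, was counted in 2161 fragments, or 41.5 CPM, in SETD2 KO and in 2643 fragments, or 43.6 CPM, in WT. Its ratio of 0.954 had an interval of 0.901 to 1.01 that held 1. IRF7 (chromosome 11, 612555 to 615999), the interferon-induced factor of the pair, was the least abundant gene per length in SETD2 KO. It had 255 fragments, or 4.90 CPM, in SETD2 KO and 223 fragments, or 3.67 CPM, in WT, a ratio of 1.33 (1.11 to 1.60). The interval of IRF7 spans the limit of 1.5, but the ratio itself lay below this limit. IRF7 was therefore not counted, with or without the interval.

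ADAR (chromosome 1, 154554534 to 154600456), the duplex RNA editing enzyme, was the most abundant gene per length in both libraries. It had 18713 fragments, or 359.7 CPM, in SETD2 KO and 26457 fragments, or 436 CPM, in WT. The ratio was 0.825 (interval 0.810 to 0.841). The gene row combines its interferon-induced and constitutive transcripts, which the tables do not separate. Per length, the IFIH1 level was 0.149 times that of ADAR in SETD2 KO and 0.0729 times in WT, a quotient of 2.04 (interval 1.88 to 2.23). ADAR lies in a stretch of chromosome 1 where the 50 nearest expressed genes had a median log2 ratio of -0.50, and 13 of them were counted as lower. Relative to these neighbours the ratio of ADAR was 1.17, on the other side of 1.

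**Figure D3:**
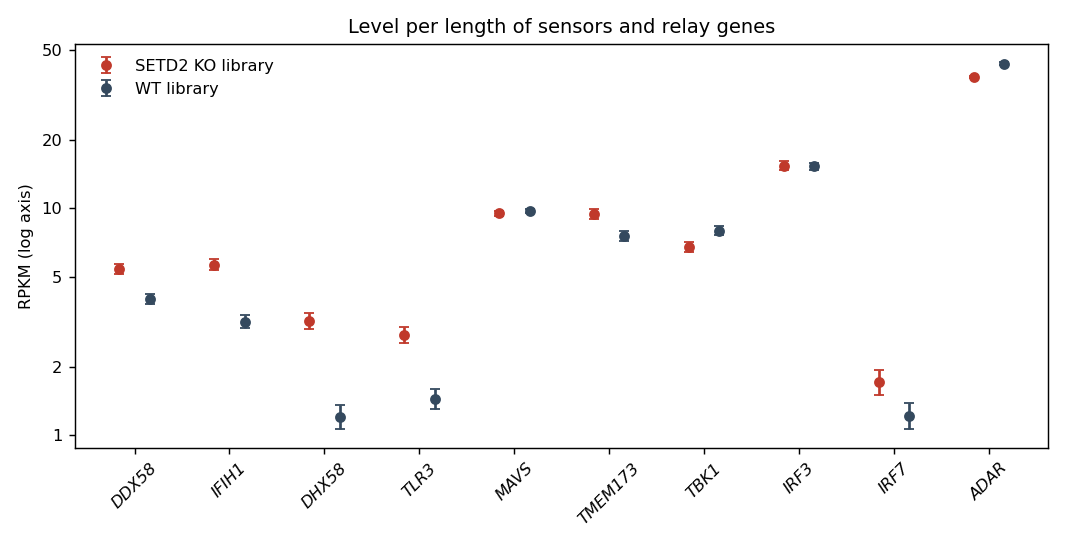
RPKM (log axis) of the 10 genes in the SETD2 KO library (red, left of each pair) and the WT library (dark, right), with 95% Poisson counting intervals as bars. RPKM is as deposited, without TMM scaling. ADAR is highest in both, at 37.9 RPKM in SETD2 KO and 43.5 in WT. The red point lies above the dark point for the receptors DDX58, IFIH1, DHX58 and TLR3, and also for TMEM173, IRF3 and IRF7.

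The order of the levels per length differed between the libraries below the first 3 genes. In SETD2 KO it ran ADAR (37.9 RPKM), IRF3 (15.5), MAVS (9.51), TMEM173 (9.46), TBK1 (6.78), IFIH1 (5.65), DDX58 (5.41), DHX58 (3.20), TLR3 (2.76) and IRF7 (1.71). Of the neighbours in this order, MAVS and TMEM173, IFIH1 and DDX58, and DHX58 and TLR3 had overlapping counting intervals. In WT it ran ADAR (43.5 RPKM), IRF3 (15.3), MAVS (9.75), TBK1 (7.99), TMEM173 (7.56), DDX58 (3.98), IFIH1 (3.17), TLR3 (1.45), IRF7 (1.22) and DHX58 (1.20). There TBK1 and TMEM173, TLR3 and IRF7, and IRF7 and DHX58 overlapped. DHX58, last in WT, thus stood above TLR3 and IRF7 in SETD2 KO, and its interval there still overlapped that of TLR3.

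Rows next to the members were examined because reads of adjoining genes can be mixed when counting ignores strand, which is not given in the sources used here. KAT2A, a histone acetyltransferase gene that lies 377 bases from DHX58, was also counted as higher, with 3929 fragments in SETD2 KO and 2750 in WT and a ratio of 1.67 (interval 1.59 to 1.75). The other expressed neighbour of DHX58, ZNF385C, had 2 fragments in SETD2 KO and 3 in WT. Expressed here means at least 10 reads in both libraries together, so the 50 nearest expressed genes include rows with few fragments. Over the 50 nearest expressed genes of DHX58 the median log2 ratio was 0.17, beside 1.33 for DHX58, and relative to it DHX58 remained counted as higher, with a ratio of 2.23. IFIH1 lay between FAP, with 7 fragments in SETD2 KO and 4 in WT, and GCA, at a ratio of 0.888. The median of its 50 nearest expressed genes was 0.16, and relative to it the ratio was 1.51 with an interval of 1.39 to 1.64, which no longer cleared 1.5. DDX58 lay between ACO1 (ratio 0.948) and TOPORS (1.02), and the median of its 50 nearest expressed genes was -0.02. TBK1 lay beside XPOT, a tRNA exporter gene that was counted as lower with a ratio of 0.633, and the median of its 50 nearest expressed genes was -0.25, beside -0.32 for TBK1. Around TLR3, SORBS2 was counted as higher, with 17 fragments in SETD2 KO and 3 in WT, and FAM149A had a ratio of 1.34. Beside TMEM173, ECSCR was lower, with 1 fragment in SETD2 KO and 12 in WT, and UBE2D2 had a ratio of 0.872. The neighbours of IRF7, 332 and 565 bases away, were PHRF1 (ratio 1.01) and CDHR5 (0.977). The median of the 50 nearest expressed genes of IRF7 was 0.21, and relative to it the ratio was 1.16 with an interval of 0.962 to 1.39. IRF3 overlapped BCL2L12 by 734 bases, where BCL2L12 had a ratio of 0.739 (0.680 to 0.803). It was also spanned by 10 rows of SNAR-A small RNA genes, none of which had a fragment in either library. No overlapping row was found for the other 9 genes. The part of neighbouring or regional signal in these ratios was not tested.

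**Figure D4:**
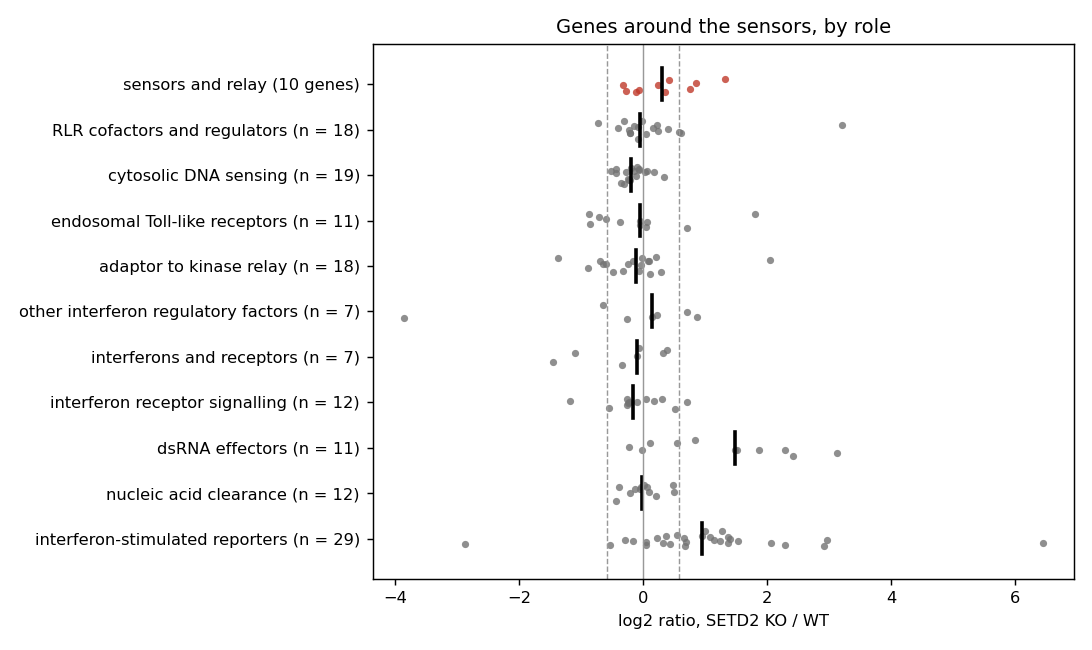
Log2 ratio of SETD2 KO to WT for the 10 genes (red) and for the tested genes of 10 lists around them (grey), with 1 point per gene and a black bar at each list's median. Dashed lines mark 1.5-fold. The medians of the dsRNA effectors and the interferon-stimulated genes lie to the right, at 1.48 and 0.96, and those of the other lists between -0.19 and 0.14.

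Genes around the members were described from 10 lists, which together held 143 tested genes, 24 of them counted as higher and 13 as lower. Over all genes tested, 10.4% were counted as higher and 9.17% as lower. Of the 24 higher genes, 15 were in the list of interferon-stimulated genes and 7 in that of dsRNA effectors. Only 1 of the 13 lower genes was in these lists. Each of the other lists held at most 1 higher gene, so the higher side of the pooled counts came mostly from those named. Higher genes made up 64.9% of those counted in the lists and 53.1% of those counted over all genes tested. Under total count scaling these shares were 71.8% in the lists and 61.0% over all genes, and relative to the 50 nearest expressed genes 77.1% in the lists and 59.9% over all genes. Proteins that help or restrain the RIG-I-like receptors had 1 higher and 1 lower gene of 18 tested, with a median log2 ratio of -0.05. RNF125, a ubiquitin ligase that marks RIG-I for degradation, had 131 fragments in SETD2 KO and 16 in WT, a ratio of 9.55 (interval 5.67 to 17.2). PCBP2, an RNA-binding protein that promotes the breakdown of MAVS, had a ratio of 0.602. Relative to the 50 nearest expressed genes 3 genes of this list were counted as higher and 0 as lower, so PCBP2 was then not counted. TRIM25, the ubiquitin ligase known as an activator of RIG-I, was not counted, with 12447 fragments in SETD2 KO and 9660 in WT and an interval of 1.46 to 1.54, and was picked here after its values were seen. In cytosolic DNA sensing, 0 of 19 genes were counted in either direction and the median was -0.19. Its members with most fragments were PRKDC, the DNA-dependent protein kinase, at a ratio of 0.831, and SURF4, a cargo receptor that binds STING, at 0.878. The sensor cGAS (MB21D1 in the tables), also picked after its values were seen because it lies directly upstream of TMEM173, had 1055 fragments in SETD2 KO and 1528 in WT, a ratio of 0.805 (0.744 to 0.872).

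Of 11 tested genes of the other endosomal receptors and their partners, none was counted as higher and 4 as lower (median -0.05). Relative to their 50 nearest expressed genes, and at 2-fold, 0 of these 4 were counted. SLC15A4, an endolysosomal transporter, had a ratio of 0.547, and the kinases IRAK4 and IRAK1, which act below most Toll-like receptors, had ratios of 0.552 and 0.614. The other lower gene was HSP90B1, a chaperone of Toll-like receptors, at 0.658. The other nucleic acid receptors of this class had few fragments, with TLR7 at 3 in SETD2 KO and 2 in WT, TLR8 at 0 in both, and TLR9 at 7 in SETD2 KO and 2 in WT. TLR3 was thus the 1 endosomal nucleic acid receptor with over 10 fragments in these libraries. In the relay from adaptors to kinases, 1 of 18 genes was higher and 3 lower (median -0.12). TBKBP1, an adaptor that binds TBK1, was counted in 739 fragments in SETD2 KO and in 209 in WT, a ratio of 4.12 (interval 3.53 to 4.83). IKBKE, the kinase closest to TBK1, was lower, with 873 fragments in SETD2 KO and 2633 in WT, a ratio of 0.387 (0.358 to 0.418). TNFAIP3, an inhibitor of NF-kB signalling, had a ratio of 0.543, and OPTN, a ubiquitin-binding partner of TBK1, a ratio of 0.618.

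Interferon transcripts themselves were at or near the limit of detection. Of 17 ligands and receptor chains, 7 were tested, and 6 had no fragment in either library. IFNB1, which IRF3 and IRF7 activate, had 4 fragments in SETD2 KO and 0 in WT, and the interval of its ratio starts at 0.770, so no difference was detectable at this depth. A count of 0 allows up to 3 fragments, or 0.0494 CPM in WT. IFNA1, IFNA5 and IFNW1 had 1 fragment each in SETD2 KO and 0 in WT, and alpha interferon genes have near-identical copies that can share reads. Among receptor chains, IFNAR1 of the type I receptor had a ratio of 0.952, chosen after its values were seen as the partner of IFNAR2. IFNAR2 was lower, with 2080 fragments in SETD2 KO and 5200 in WT, a ratio of 0.467 (interval 0.443 to 0.491). IL28RA, the specific chain of the lambda interferon receptor, was lower with a ratio of 0.364 (0.294 to 0.449).

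Below the receptors, 1 of 12 signalling genes was counted, on the lower side (median log2 ratio -0.16). The lower gene was SOCS1, an inhibitor of JAK kinases, at 65 fragments in SETD2 KO and 173 in WT, a ratio of 0.438 (0.324 to 0.586). The kinase JAK1 had a ratio of 1.24. Of the 7 other interferon regulatory factors, 0 were counted as higher and 1 as lower (median 0.14). IRF9, a factor of interferon receptor signalling named after its values were seen, had 721 fragments in SETD2 KO and 516 in WT and was not counted (interval 1.45 to 1.83). IRF1 and IRF2, which act at related elements, had ratios of 0.839 and 1.10. Nucleases and helicases that clear self nucleic acids had 0 counted genes of 12 and a median of -0.01. RNASET2, a lysosomal ribonuclease, had a ratio of 1.05, and PNPT1, a mitochondrial RNA exonuclease, a ratio of 0.762.

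Proteins that act on duplex or triphosphate RNA after interferon were the list with the highest median, 1.48. Of 11 genes, 7 were counted as higher and 0 as lower. OASL, a relative of the oligoadenylate synthetases that binds RIG-I, had 641 fragments in SETD2 KO and 85 in WT, a ratio of 8.80 (interval 7.01 to 11.2). The synthetases OAS1 and OAS2, which activate RNase L, had ratios of 4.89 (3.94 to 6.10) and 5.37 (3.94 to 7.44). Of 29 other interferon-stimulated genes, 15 were counted as higher and 1 as lower (median 0.96). RSAD2, an antiviral radical enzyme, had 2352 fragments in SETD2 KO and 31 in WT, CMPK2, a nucleotide kinase, had 733 in SETD2 KO and 113 in WT, and HERC5, the ligase of ISG15, had 1519 in SETD2 KO and 361 in WT. EPSTI1 was lower, with 4 fragments in SETD2 KO and 38 in WT. The ratios of these 3 named higher genes ran from 4.91 for HERC5 to 88.5 for RSAD2. They were picked for the highest lower interval bounds among the 29, so they cannot be set against the 10 unselected sensors and relay genes. The median log2 ratio of the 29, 0.96, lay below the 1.33 of DHX58. These lists were chosen with earlier results of these libraries known, and their direction is not independent evidence.

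The motif of GAAA repeats with 2 bases between them was present in the promoters of 5 of 7 dsRNA effector genes and of 18 of 25 interferon-stimulated genes with a RefSeq promoter. In the other lists it was found in 0 of 12 clearance genes, 1 of 16 DNA sensing genes, 1 of 16 relay genes, 1 of 9 genes of endosomal receptors, 0 of 5 other interferon regulatory factors, 1 of 10 receptor signalling genes, 4 of 15 interferon and receptor genes and 2 of 15 genes of the RIG-I-like receptor cofactors. Of all 12438 tested genes with a promoter, 513 held the motif, and 15.6% of these were counted as higher and 8.77% as lower. Over all 12438 genes the shares were 10.0% and 9.75%. These shares are descriptions of these libraries.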

How the data were processed

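Total RNA of 2 libraries, 1 per line, was sequenced, with the group taken from the sample title. Per the file headers, the authors deposited a raw read count and an RPKM for each gene, with gene length, on hg19. TopHat2 2.0.6, Bowtie and HTSeq are named in the submitters' processing notes, while settings, annotation release and strand use were not given in the sources used here. Every deposited count was even, so counts were halved to fragments. The deposited RPKM used a library total of which the counts made up 72.9% in SETD2 KO and 72.7% in WT, and it was used for levels between genes. The Y rows of 23 genes listed on X and Y were dropped, leaving 23375 of 23398 rows.

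Libraries were scaled by TMM (edgeR 4.0.16, R 4.3.3) over the 16894 genes with at least 10 reads in both libraries together. Ratios had exact conditional 95% intervals (SciPy 1.17.1), and 0.5 fragments were added in each library for log2 ratios. Intervals and the floor of 3 fragments cover counting error only. No p-value was computed, since 1 library per group gives no replicate error. The rule was tested on simulated counts with counting error only, the error that the interval assumes. Such counts cannot show how the rule fares with variation between cultures. A second motif spacing was added after the sequences had been seen. Neighbours were the 50 nearest tested genes by midpoint on the chromosome, called expressed above, some of them with few fragments. Gene names were matched to RefSeq by symbol or synonym.

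The members and gene lists were chosen with earlier results of these data known. Named were all members, the next expressed row on each side, up to 3 higher and 3 lower genes of each list, and the 2 with most fragments where fewer than 2 were counted. Some genes that this rule names are not reported here. Alternatives were other scalings (total count, upper quartile, DESeq2 1.42.0 size factors, protein-coding genes, RPKM), minimums of 1 and 50 reads, undivided counts, a 99% interval, the fold without an interval, 2-fold, 2 added fragments, and ratios relative to the neighbours. Endothelial and fibroblast markers were also measured. Of 7 endothelial markers, ERG was counted as higher (22 fragments in SETD2 KO, 3 in WT), and the levels summed to 1.08 CPM in SETD2 KO and 0.857 CPM in WT. Of 7 fibroblast markers, COL1A1 was higher (ratio 2.25) and COL1A2 (0 fragments in SETD2 KO, 14 in WT) and LUM (ratio 0.367) were lower, with sums of 25.3 CPM in SETD2 KO and 18.3 CPM in WT. Among the 9 renal markers, LHX1 (ratio 2.64) and CDH6 (1.99) were higher, and EPAS1 (0.553) and VIM (0.651) were lower.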

Additional observations from a re-analysis of the deposited data

How the results depend on the processing

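No paired analysis was possible because each group has 1 library. Of 80 ratios of the 10 genes under the 8 alternatives that change the ratio itself, 76 lay on the same side of 1 as reported. The exceptions were IRF3 under total count and RPKM scaling (1.01 in both) and upper quartile scaling (just above 1) and ADAR relative to its 50 nearest expressed genes (1.17). Apart from the ratios relative to neighbours, each of these 8 alternatives multiplies all genes by the same factor, close to 1. Under those, only a gene with a ratio near 1, such as IRF3, could change side, so the 76 say little about stability. Of all 13 alternatives, the count of higher genes was 3 under every one except 2. It was 1 relative to the 50 nearest expressed genes, where IFIH1 (1.51) and TLR3 (1.11) were no longer counted, and 1 at 2-fold. Undivided counts, the fold without an interval and 2 added fragments could not have lowered this count. No gene of the 10 was counted as lower under any alternative. Over the pathway lists, 24 genes were higher, mostly interferon-stimulated genes and dsRNA effectors, and 13 were lower. Relative to the nearest genes the split was 27 and 8, and at 2-fold 19 and 5. Of 240 counts by list and alternative, 215 stayed within 1.5 times of the reported count. These 215 include counts of 0 that stayed 0, such as those of the clearance genes throughout, which say little about stability. The cause of these moves was not tested, except that 2-fold is a stricter limit. With 1 library per line, variation between cultures was not measured. Depth limited the interferon genes, TLR7, TLR8 and TLR9.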
